A study of Homo sapiens with 2 samples.

Results

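The splicing factors examined here are the SR proteins, the hnRNP proteins and 11 further regulators of pre-mRNA splicing, read as RNA levels in Ca9-22, a line of oral squamous cell carcinoma (OSCC) cells. The set comprised the array's gene names that start with SRSF or HNRNP, plus TRA2A, TRA2B, PTBP1, PTBP2, ESRP1, ESRP2, RBFOX2, MBNL1, MBNL2, CELF1 and QKI. HNRNPA1L2 and the antisense and pseudogene names were left out. This gave 44 genes of 43317 gene names on the array, and 43 of the 44 were detected on both arrays, among 20246 names detected on both. In the first group Ca9-22 carried a lentivirus that expresses DLEU1, a long noncoding RNA, and in the other an infection with a control vector stood in its place. Both were selected with blasticidin for 2 weeks (the labels give 6 mg/ml, a unit that could not be checked here), and DLEU1 was a full-length cDNA amplified from a different OSCC line, KON. Each group had 1 Agilent 1-colour array of Cy3-labelled RNA, which allows no test and no spread over replicates, and this sets the precision of all values.

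SR proteins carry RNA-recognition motifs and a tail rich in arginine and serine, bind exonic enhancers and generally favour the use of nearby exons. hnRNP proteins coat nascent transcripts, often bind silencers and frequently oppose SR proteins at the same exon. Regulators such as ESRP1 and ESRP2 (epithelial), MBNL1 and MBNL2, RBFOX2, QKI and CELF1 act on narrower sets of exons that differ between cell types and states of differentiation. Transcripts of many SR and hnRNP genes hold poison exons, through which the proteins limit their own RNA.

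Levels below are log2 processed signals minus the 75th percentile of the array, and a difference is DLEU1 vector minus control vector on that log2 scale. A gene was represented by its brightest probe detected on both arrays. A gene was called at 2-fold or more. The SD of the log2 difference between spots of the same probe was 0.08 (282 probes), which covers neither labelling nor the variation between cultures. Levels of different genes come from different probes and were not compared.

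Of all probes, the control array detected 47.6% and the DLEU1 array 48.1%. The brightest DLEU1 probe was 6.67-fold higher with the DLEU1 vector. The dimmer ones, assigned to another DLEU1 transcript, were 1.81-fold and 1.46-fold higher, and whether they read the vector's RNA was not tested. All 8 keratinocyte markers were detected on both arrays, and 6 were at least 2-fold higher with the DLEU1 vector (median 1.48), EPCAM (-0.78) being lower. Fibroblast, immune and endothelial lists had 2 of 6, 3 of 5 and 2 of 4 genes detected on both arrays. Each of these lists held genes on both sides of 0, from PDGFRB (-0.33) to COL1A1 (3.99), from CD14 (-1.60) to PTPRC (0.45) and from CDH5 (-0.59) to VWF (3.70). A list of 8 proliferation genes was lower throughout, from MKI67 (-3.09) to MCM6 (-1.92). The proliferation list went the same way as most splicing factors and the keratinocyte list mostly the other way. Their part in the result was not tested. The DLEU1 vector array had a damaged strip (spot columns 33 to 47), where 27.4% of the probes lit with the control vector were 2-fold lower, compared with 12.0% elsewhere. It held 6 member probes, among them the brightest of SRSF1, SRSF2, HNRNPA0 and HNRNPLL. Without the strip 12 of 42 members were at least 2-fold lower and the member median was -0.74. SRSF1 was then no longer measured, and HNRNPLL, read from its next probe, was called at -1.07. The share of all gene names called without the strip was not read.

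Most SR and hnRNP transcripts were lower with the DLEU1 vector, and the 7 cell-type regulators lay on both sides of 0 with 0 called. Of the 43 detected genes, 35 were below 0 (81.4%, against 54.2% of all gene names) and 8 above, and the median difference was -0.73 against -0.07 for all gene names. A total of 12 genes were at least 2-fold lower (27.9%), where 9.78% of all gene names were, and 1 was at least 2-fold higher (2.33%), where 9.18% were. At 1.5-fold the counts were 24 lower (55.8%, against 22.0% of all gene names) and 2 higher (4.65%, against 18.4%). At 3-fold there were 0 members either way, against 3.31% lower and 3.82% higher of all gene names. Among names whose signal reached 100 on each array, 11 of 42 members were 2-fold lower, against 10.2% of all such names, and 1 was higher, against 7.27%. The 12 lower genes were SRSF1, SRSF2, SRSF3, SRSF7, TRA2B, HNRNPA2B1, HNRNPAB, HNRNPC, HNRNPD, HNRNPDL, HNRNPM and HNRNPU, and the higher gene was SRSF8. In RNA from whole cultures, fewer cells of a kind and less RNA per cell cannot be told apart.

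**Figure D1:**
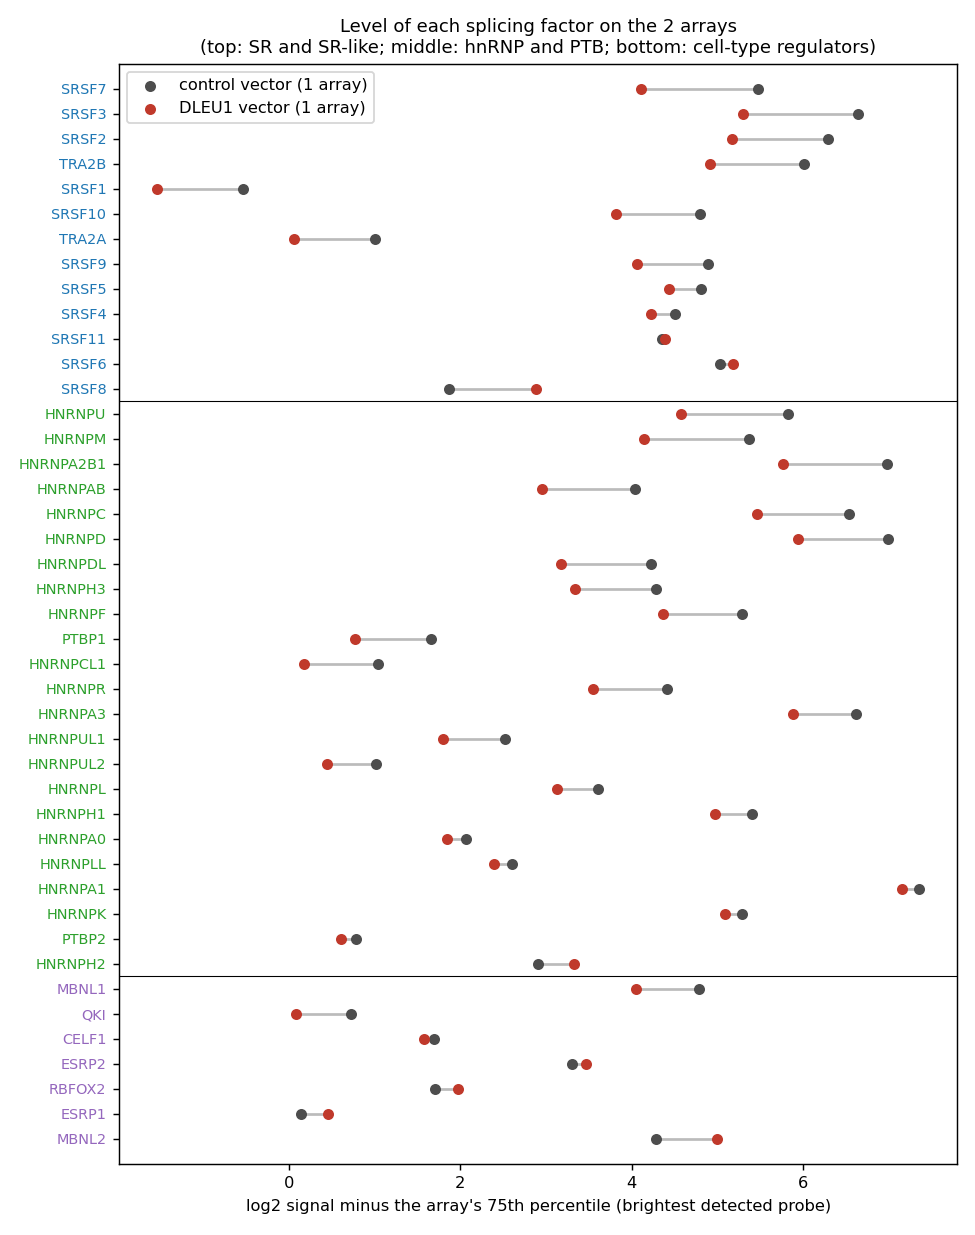
Level of each of the 43 detected splicing factors with the control vector (grey) and with DLEU1 (red), 1 array each; the x axis is the log2 signal minus the array's 75th percentile. The red point lies to the left of the grey one for 35 genes and to the right for 8, with SRSF8 the widest gap to the right at 1.02.

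The count rests on a threshold that many members lie close to. Among the 12 called lower, HNRNPC, HNRNPD, HNRNPDL and SRSF1 lay within 1 spot SD of 2-fold, and among those not called HNRNPH3, SRSF10 and TRA2A did. The single higher call, SRSF8, also lay within 1 spot SD of the threshold. Scaling moved the count too, to 3 lower genes after loess, 6 after quantile normalization and 24 with spike-in scaling. The share of all gene names called under these scalings was not read, so these counts have no such share beside them. Of the 14 alternatives that give a value per gene, 6 took HNRNPDL under 2-fold, 5 took TRA2B and SRSF8, and at most 3 took any other called member. SRSF3 stayed at least 2-fold lower under every scaling, background, filter and probe setting tried. Scaling by the spike-in probes, the median or the 75th percentile of detected probes moved the median of all gene names by -0.40, -0.11 and 0.11. The member median minus the all-gene median, which such a shift leaves as it is, was -0.66.

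**Figure D2:**
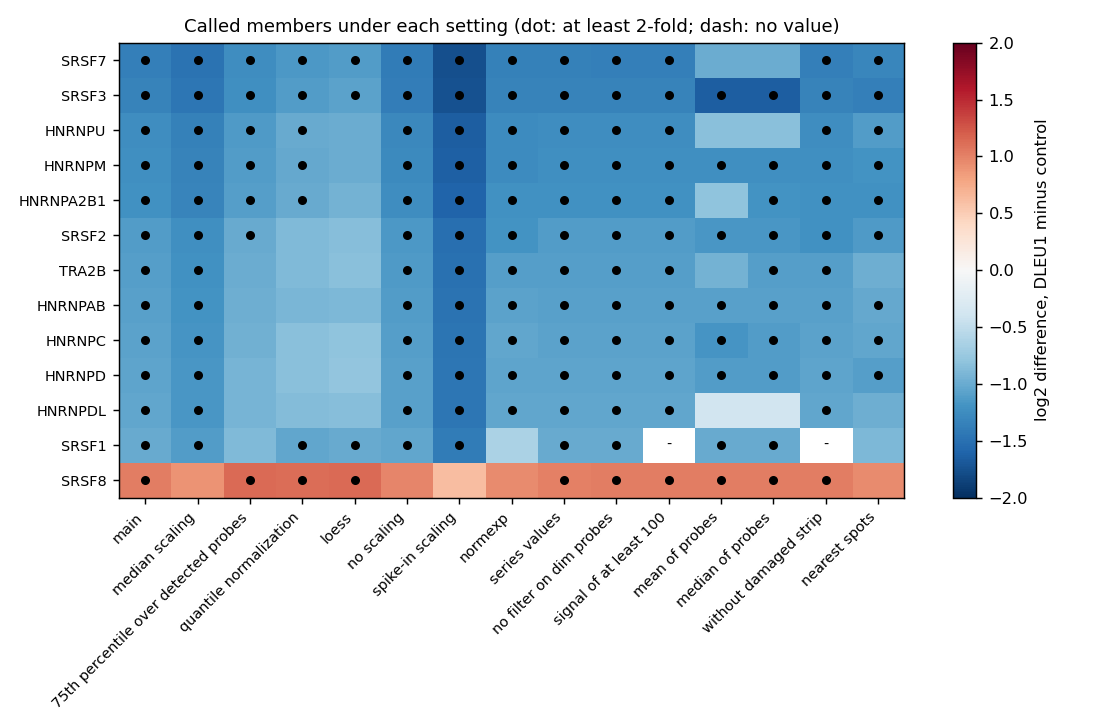
Log2 difference (colour, DLEU1 vector minus control vector) of the 13 called members under the main setting and the 14 alternatives that give a value per gene. A dot marks at least 2-fold, a dash marks no value, and SRSF3 carries a dot in every column.

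Start-site regions are shown for the members with the 4 largest decreases and for the 1 member called higher at 2-fold. These are the genes at the ends of the range. They are the 250 bases before the RefSeq start furthest upstream (GRCh38.p14), 5′ to 3′ on the gene's strand. Capitals mark CCAAT (the CCAAT box), CACGTG (an E-box) and GGGCGG (the GC box), searched on both strands together with TTTCGCGC and TTTGGCGC (E2F-type elements), with overlapping matches joined:
SRSF7 (chr2:38751495-38751744, minus strand): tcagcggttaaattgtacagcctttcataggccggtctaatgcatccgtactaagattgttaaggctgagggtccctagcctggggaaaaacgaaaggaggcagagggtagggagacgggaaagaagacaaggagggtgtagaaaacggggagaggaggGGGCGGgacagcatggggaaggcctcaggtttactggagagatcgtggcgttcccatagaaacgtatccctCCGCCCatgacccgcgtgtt
SRSF3 (chr6:36594112-36594361, plus strand): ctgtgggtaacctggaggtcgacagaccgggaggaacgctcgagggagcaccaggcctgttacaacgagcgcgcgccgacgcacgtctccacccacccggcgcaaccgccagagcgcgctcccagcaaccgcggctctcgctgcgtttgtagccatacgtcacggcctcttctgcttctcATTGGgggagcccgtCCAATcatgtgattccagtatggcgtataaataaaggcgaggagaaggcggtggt
HNRNPU (chr1:244864544-244864793, minus strand): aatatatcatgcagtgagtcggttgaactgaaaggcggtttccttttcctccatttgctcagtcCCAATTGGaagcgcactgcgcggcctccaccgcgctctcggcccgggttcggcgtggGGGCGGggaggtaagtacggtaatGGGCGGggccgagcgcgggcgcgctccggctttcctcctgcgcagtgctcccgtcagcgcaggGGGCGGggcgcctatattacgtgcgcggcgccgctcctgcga
HNRNPM (chr19:8444725-8444974, plus strand): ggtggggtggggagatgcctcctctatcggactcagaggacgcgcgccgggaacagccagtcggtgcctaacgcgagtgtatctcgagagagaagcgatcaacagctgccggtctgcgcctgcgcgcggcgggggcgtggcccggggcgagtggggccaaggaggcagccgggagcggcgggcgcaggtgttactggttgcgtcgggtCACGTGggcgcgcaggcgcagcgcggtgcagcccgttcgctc
SRSF8 (chr11:95066627-95066876, plus strand): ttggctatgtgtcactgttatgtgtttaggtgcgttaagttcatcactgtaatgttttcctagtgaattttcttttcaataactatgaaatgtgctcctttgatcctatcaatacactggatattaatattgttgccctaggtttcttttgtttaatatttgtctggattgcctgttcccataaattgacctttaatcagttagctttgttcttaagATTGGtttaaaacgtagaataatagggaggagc

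The SRSF3 region held CCAAT in both orientations, 55 and 70 bases before the start, and SRSF7 held GGGCGG at 91 and, reversed, at 20 bases. HNRNPU had 3 GGGCGG and a CCAAT in each orientation, and HNRNPM had a single CACGTG 42 bases before the start. The SRSF8 region held a reversed CCAAT 33 bases before the start and none of the other motifs. Over the whole window of 300 bases (250 before and 50 after the start), 37 of the 44 members matched the table, and ESRP1, ESRP2, HNRNPA1, QKI, RBFOX2, SRSF2 and TRA2A did not. GGGCGG was present in 24 of the 37 (64.9%), against 44.5% of 27305 promoters, 1 per symbol. CCAAT was present in 18 (48.6% against 35.7%) and CACGTG in 7 (18.9% against 7.41%). The median GC content was 65.0% for the member promoters and 58.3% for all promoters, and its part in these shares was not tested. TTTCGCGC and TTTGGCGC were in 0 of the 37, against 0.538% and 0.659% of all promoters. The 11 promoters of the 2-fold lower members and the 25 of the other detected members were alike in GGGCGG (7 and 16, or 63.6% and 64.0%). CCAAT was in 6 (54.5%) and 12 (48.0%) of them and CACGTG in 3 (27.3%) and 4 (16.0%). A match is a description of letters, not of binding.

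Among the 12 SR proteins, 11 were detected on both arrays. Of these, 4 were called lower (36.4%, against 9.78% of all gene names) and 1 higher (9.09%, against 9.18%). The only SRSF12 probe was not well above background on either array. SRSF7, an SR protein with a zinc knuckle that also serves mRNA export, had the largest decrease of the set by its brightest probe, from 5.47 to 4.11, a difference of -1.36 or 2.57-fold. That probe lies on chromosome 2 from 38976675 to 38976734 (hg19, minus strand). A second, dimmer SRSF7 probe went from 0.85 to 0.24, a difference of -0.61 that was not called. SRSF3, the smallest SR protein, which promotes exon inclusion and mRNA export, went from 6.64 to 5.30 (-1.34, 2.53-fold) at chromosome 6, 36570424 to 36570483. Its second probe, closer to the start of the gene (36564681 to 36564740), went from 5.52 to 3.56. This difference of -1.96 or 3.89-fold was larger than at any other detected member probe.

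SRSF2, which binds exonic enhancers and also acts in transcription elongation, went from 6.29 to 5.17 (-1.12). Its brightest probe lay in the damaged strip, and the other probe, outside it, gave -1.21 (3.63 to 2.42). SRSF1, the founding member of the family and a known oncoprotein, had a single, fairly dim probe, which went from -0.53 to -1.53, at the 2-fold threshold itself. That probe lay in the strip as well and cannot be checked against another, and its difference was -0.63 after normexp background correction. TRA2B, an SR-like protein that binds GAA-rich enhancers, went from 6.01 to 4.92 (-1.10). Its other probes gave -1.15 and -0.56. The TRA2B call was lost with the mean of probes, the 75th percentile of detected probes, quantile normalization, loess and the nearest spots subtracted. Its paralogue TRA2A went from 1.0 to 0.07 (-0.93), just short of the threshold.

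SRSF10, a splicing repressor when it is dephosphorylated, had 4 detected probes, all lower. The brightest went from 4.80 to 3.82 (-0.98), and the others gave -1.12, -0.76 and -0.75. SRSF9, a close relative of SRSF1, went from 4.89 to 4.06 (-0.83). SRSF5, whose RNA responds to insulin and growth signals, went from 4.81 to 4.43 (-0.37), and an overlapping probe gave -0.51. SRSF4, a long SR protein with an extended arginine-serine tail, went from 4.50 to 4.22 (-0.28). The remaining SR proteins were not lower in the main setting. SRSF11 had nearly equal levels of 4.35 and 4.38 (0.04), and its sign turned with median, spike-in or no scaling and with the mean of its probes. SRSF6, a relative of SRSF4, went from 5.03 to 5.18 (0.14), a difference that became -0.25 with spike-in scaling. A dim second SRSF6 probe, for a noncoding transcript and inside the strip, gave 0.65. SRSF8, an expressed retrocopy related to SRSF2, was the only SR gene called higher, from 1.87 to 2.89. This difference of 1.02 (2.02-fold) was measured by 1 probe (chromosome 11, 94804156 to 94804215) and lay under 2-fold with median, spike-in or no scaling, with normexp and after subtracting the nearest spots.

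The hnRNP and PTB genes were lower almost throughout, with 22 of 23 below 0 (95.7%, against 54.2% of all gene names). HNRNPH2 alone was above 0. The median of the hnRNP and PTB genes was -0.86, or -0.79 relative to all gene names. Of the 23, 7 were called lower (30.4%, against 9.78% of all gene names). In the A/B and D group, whose members bind AU-rich and UAGG-type sequences, all 7 genes were below 0. Of these, 4 were called lower (57.1%, against 9.78% of all gene names). HNRNPA2B1, which also sorts microRNAs and reads m6A-marked RNA, went from 6.98 to 5.77 (-1.21, 2.32-fold). A second bright probe gave -1.20, and a dim probe for another transcript stood at -2.73 on both arrays. HNRNPAB went from 4.04 to 2.95 (-1.09). HNRNPD (AUF1), known for its role in the decay of AU-rich mRNAs, went from 6.98 to 5.93 (-1.05), with -1.20 at the other probe.

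HNRNPDL, a relative of HNRNPD, split between its probes. The brighter went from 4.23 to 3.18 (-1.05), while the other, nearer the end of the gene (chromosome 4, 83344403 to 83344462), went from 2.61 to 2.90 (0.29). The gap of 1.34 between these probes was the widest of any member, and the HNRNPDL call was lost with the mean or the median of probes, the 75th percentile of detected probes, quantile normalization, loess and the nearest spots subtracted. HNRNPA1, an antagonist of SRSF1 at many exons, was nearly level at 7.35 and 7.16 (-0.20). Its dimmer probes gave -0.35 and 0.21, and after loess the bright probe was at 0.08. HNRNPA0, which binds AU-rich mRNAs of stress responses, went from 2.07 to 1.85 (-0.22) at a probe in the strip, and the probe outside gave -0.20. Subtracting the nearest spots turned the strip probe of HNRNPA0 to 0.08. HNRNPA3, which binds the A2 response element in mRNA trafficking, was lower at all 5 of its probes, from -0.73 at the brightest (6.61 to 5.88) to -0.19 at the 1 in the strip.

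Probes of HNRNPA3 with the same position (chr2:178080329-178080388, hg19, plus strand) show how near the array's designs lie to each other, and they differ at 3 positions, in capitals:
A_24_P269895: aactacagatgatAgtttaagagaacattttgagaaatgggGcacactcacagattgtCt
A_33_P3422170: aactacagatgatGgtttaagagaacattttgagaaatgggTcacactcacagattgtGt

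Counted from the 5′ end, and from A_24_P269895 to A_33_P3422170, the substitutions are A14G, G42T and C59G. Both sequences keep an open reading frame over the 60 bases. The first probe went from 3.99 to 3.38 (-0.62) and the second from 2.15 to 1.76 (-0.39). These near-identical probes thus read the same direction with differences of unlike size. The sequences cannot both match that position exactly, and what each probe binds was not tested.

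In the hnRNP C group, HNRNPC, which binds uridine tracts and measures RNA length in the nucleus, went from 6.54 to 5.47 (-1.07). Its other probes gave -1.33 and -1.11. The files place the last of these on chromosome 2 (190788815 to 190788876) and the others on chromosome 14, and whether it reads a copy of the gene was not tested. The copy HNRNPCL1 went from 1.04 to 0.18 (-0.87), and binding of HNRNPC RNA to this probe cannot be told apart from HNRNPCL1 RNA. HNRNPU, a scaffold attachment factor that organises chromatin and regulates snRNP maturation, went from 5.82 to 4.58 (-1.24, 2.37-fold). The 60 bases of its probe are spread over 439 bases of chromosome 1 (245018289 to 245018727), and a second probe gave only -0.43 (2.31 to 1.88). Its relatives HNRNPUL1 (2.53 to 1.80, -0.73) and HNRNPUL2 (1.02 to 0.45, -0.57) were lower but not called.

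HNRNPM, which favours mesenchymal splice forms of CD44 in opposition to ESRP1, went from 5.37 to 4.14 (-1.23, 2.34-fold) at chromosome 19, 8553826 to 8553885. HNRNPR went from 4.41 to 3.55 (-0.86). HNRNPK, a poly(C)-binding protein with KH domains, was nearly level, from 5.29 to 5.09 (-0.19), and -0.53 at its other probe. After quantile normalization or loess the HNRNPK difference turned to 0.02 and 0.06. In the F/H group, which binds G-tracts, HNRNPH3 went from 4.28 to 3.34 (-0.94) and HNRNPF from 5.28 to 4.37 (-0.91). The second HNRNPH3 probe gave -0.36. HNRNPH1 differed by -0.43 (5.40 to 4.97), and its other 2 probes were not well above background. HNRNPH2, the X-linked paralogue of HNRNPH1, went from 2.91 to 3.33 (0.42).

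PTBP1 and PTBP2 bind pyrimidine tracts and repress exons in non-neuronal and neuronal cells. PTBP1 went from 1.66 to 0.77 (-0.89), while PTBP2 differed by only -0.18 (0.79 to 0.61). HNRNPL, which binds CA repeats, went from 3.60 to 3.13 (-0.47). HNRNPLL, known from CD45 splicing in lymphocytes, gave -0.21 (2.60 to 2.39) at its brightest probe, which lay in the strip. Its other probes gave -0.17, 0.02 and -1.07, and the HNRNPLL difference at the brightest probe was 0.00 after the nearest spots were subtracted.

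**Figure D3:**
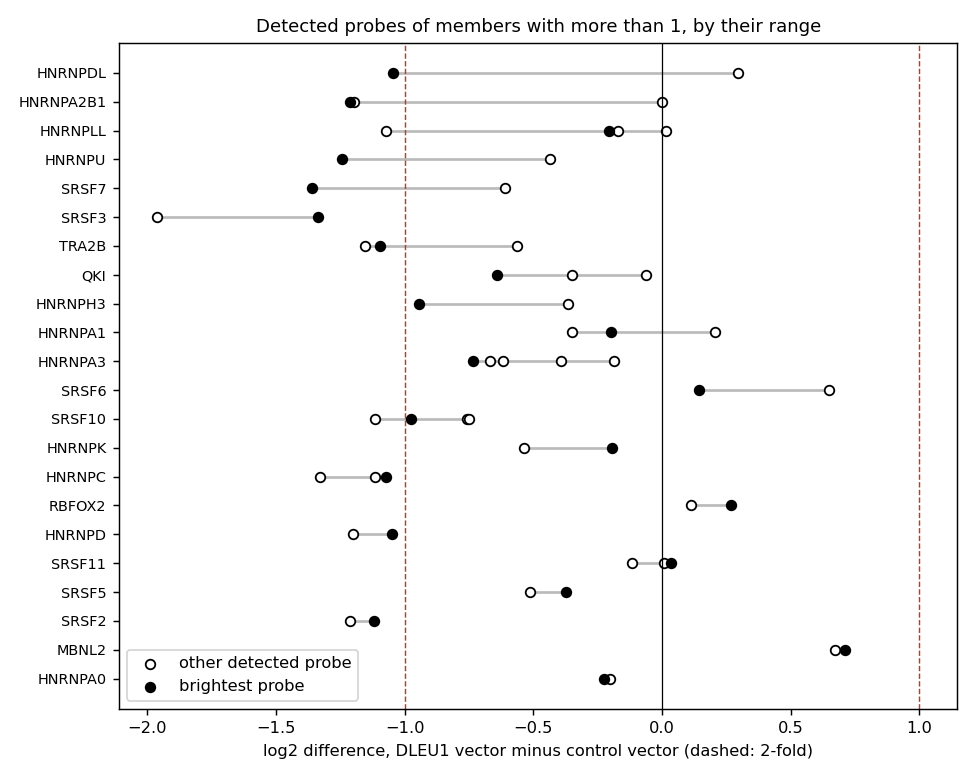
Log2 difference (x axis, DLEU1 vector minus control vector) at every detected probe of the 22 members with more than 1, ordered by their range. Filled points are the brightest probes and dashed lines mark 2-fold; HNRNPDL spans from -1.05 to 0.29, and SRSF2 and HNRNPC lie beyond -1 at all their probes.

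Of 81 member probes, 78 were detected on both arrays, and the agreement between probes of a gene set how closely its value can be read. Among 22 members with more than 1 detected probe, the probes went the same way for 17 and both ways for 5 (HNRNPDL, HNRNPLL, HNRNPA1, SRSF11 and, through a dim probe at 0.00, HNRNPA2B1). The median range over a gene's probes was 0.53, far above the spot SD, and for 7 genes the probes lay on both sides of 2-fold lower. Taking the mean of the detected probes left 7 genes at least 2-fold lower, and taking the median of the probes left the member median at -0.62. The share of all gene names called with the mean of probes was not read. Whether probes of a gene read different splice forms was not tested.

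The 7 cell-type regulators went both ways, with 4 above 0 and 3 below (42.9%, against 54.2% of all gene names). At 2-fold 0 were called, where 9.78% of all gene names were lower and 9.18% higher. Relative to the median of all gene names, their median was 0.24. MBNL2, which drives differentiated splice forms, had the largest increase among them, from 4.28 to 4.99 (0.71), and 0.67 at its second probe. Its paralogue MBNL1 went the opposite way, from 4.79 to 4.04 (-0.74). QKI, which regulates splicing and circular RNA formation, went from 0.73 to 0.09 (-0.64), with -0.35 and -0.06 at its other probes.

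The epithelial regulators were slightly higher in the main setting. ESRP1 went from 0.14 to 0.46 (0.32). ESRP2 was the only member with replicated spots, and its 10 spots lay between 3.24 and 3.33 on the control array and between 3.40 and 3.56 after DLEU1 infection. Their mean difference was 0.17 ± 0.05 (SD over 10 spots of 1 array pair). These spots are copies of 1 probe and not replicates of the infection. RBFOX2, which binds GCAUG elements, went from 1.70 to 1.97 (0.27), with 0.11 at its second probe. With spike-in scaling ESRP1, ESRP2 and RBFOX2 turned to -0.08, -0.23 and -0.13, so their direction depended on the scaling. CELF1, an antagonist of MBNL proteins, differed by -0.13 (1.70 to 1.57).

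**Figure D4:**
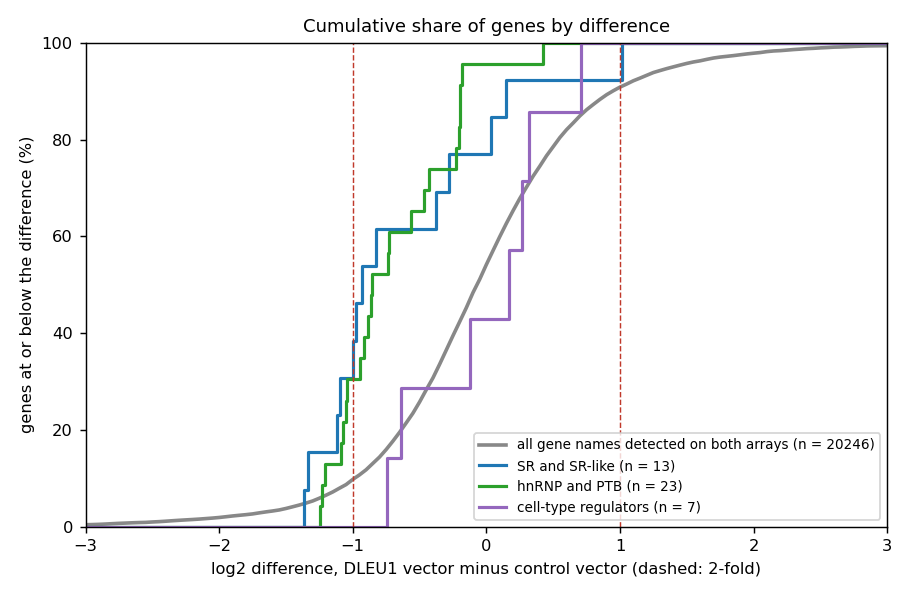
Cumulative share of genes (y axis, %) at or below each log2 difference (x axis) for all gene names detected on both arrays and for the members by class. The curves of SR and SR-like genes and of hnRNP and PTB genes lie left of the grey curve over most of the range. The curve of the 7 cell-type regulators crosses it.

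The other genes of the splicing machinery were read from lists of their own. Core snRNP and spliceosome genes were mostly lower, with 66 of 68 detected genes below 0 (97.1%, against 54.2% of all gene names). At 2-fold, 22 were lower (32.4%, against 9.78%) and 0 higher (against 9.18%). Their median was -0.74, or -0.67 relative to all gene names. Of these 22, 11 encode Sm and LSM proteins, which form rings on snRNAs. The Sm genes SNRPF (-1.49), SNRPB (-1.48), SNRPG (-1.34), SNRPD1 (-1.25) and SNRPE (-1.15) were called, as were the LSM genes LSM5 (-2.06, at a probe in the strip), LSM6 (-1.42), LSM3 (-1.30), LSM7 (-1.20), LSM4 (-1.11) and LSM2 (-1.04). Particle-specific proteins were SNRPC of U1 (-1.28), SNRPA1 of U2 (-1.64), SNRNP40 of U5 (-1.29) and SNRNP25 of the minor spliceosome (-1.91). PPIH (-1.89), PRPF4 (-1.14) and PRPF3 (-1.06) belong to the U4/U6 particle, and PHF5A (-1.41) and SF3A3 (-1.08) to the SF3 complexes of U2. DHX15 (-1.15), a helicase of spliceosome disassembly, and PRPF38A (-1.10) completed the 22, and the highest gene was SNRNP35 (0.42). SNRPN was not detected on both arrays.

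SR-related speckle proteins differed less, with 16 of 21 below 0 (76.2%, against 54.2% of all gene names). Only 1 was called lower (4.76%, against 9.78%), and the median was -0.30, from U2SURP (-1.04) to SCAF11 (0.39). The kinases and importers that phosphorylate SR proteins and carry them into the nucleus were not lower as a group. Of 10 genes, 4 were below 0 (40.0%, against 54.2% of all gene names) and 6 above. At 2-fold 0 were called, where 9.78% of all gene names were lower and 9.18% higher. Relative to all gene names their median was 0.23. The differences themselves had a median of 0.16 and ran from SRPK1 (-0.70), the main cytoplasmic SR kinase, to SRPK3 (0.85), which was dim on both arrays. Among other RNA-binding splicing regulators 30 of 44 were below 0 (68.2%, against 54.2% of all gene names), with a median of -0.35. The share called lower, 4 of 44 or 9.09%, was close to that of all gene names. SYNCRIP (-1.33), RBM3 (-1.14), ELAVL1 (-1.05) and DAZAP1 (-1.02) were called lower, and CELF4 (2.40, from -3.31 to -0.91) was called higher. Another 11 genes of that list were not detected on both arrays, among them the neuronal NOVA1, NOVA2, RBFOX1, ELAVL3, ELAVL4 and SRRM4. Other neuronal genes of the list were detected on both, namely CELF4, RBFOX3 (1.64 to 2.30), ELAVL2 (-2.79 to -3.48) and CELF5 (-3.31 to -3.47).

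**Figure D5:**
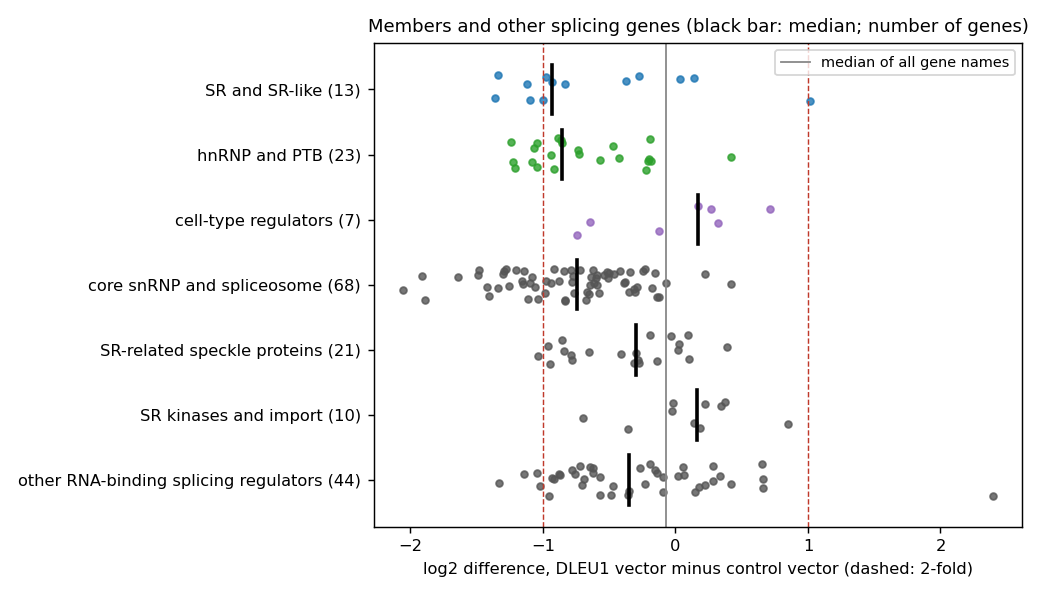
Log2 difference (x axis, DLEU1 vector minus control vector) of each detected gene of the member classes and of the other splicing lists, 1 point per gene, with the median as a black bar and the median of all gene names as a grey line. The SR and SR-like, the hnRNP and PTB, and the core spliceosome genes centre between -0.93 and -0.74. Cell-type regulators and SR kinases lie around the grey line.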

How the data were processed

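The arrays were Agilent SurePrint G3 designs. Per the file headers, the deposited intensity values were processed signals of Agilent Feature Extraction 10.7.3.1. The authors' series values held the same intensity, rounded (at most 0.497% apart). The authors used GeneSpring, and neither deposited intensity was normalized between arrays. Each array had 62976 spots. Control spots and 84 and 103 outlier spots were left out, none was saturated, spots of a probe were averaged on the log2 scale, and the 75th percentile (7.92 and 7.88) was subtracted. A probe was detected where most of its spots were well above background. With 1 array per group no test was run. Every detected member was named, as were the called, highest and lowest genes of each splicing list. Members and lists were chosen with earlier results of these data known. Protein sequences and an hg19 annotation were not used here, so probe positions carry no exon. Alternatives were 14 settings and thresholds of 1.5-fold and 3-fold. Tools were Python 3.11.15, pandas 2.3.3, R 4.3.3 and limma 3.58.1 (normexp, offset 50), with loess at span 0.3. The scripts were tested on simulated data.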

Additional observations from a re-analysis of the deposited data

How the results depend on the processing

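No paired analysis was possible because each group had 1 array. Members at least 2-fold lower (12) numbered 6 with the 75th percentile of detected probes and with quantile normalization, 3 with loess, 24 with spike-in scaling, 7 with the mean of probes, 24 at 1.5-fold and 0 at 3-fold. Members at least 2-fold higher (1) numbered 0 with median, no or spike-in scaling, with normexp, with the nearest 100 spots subtracted and at 3-fold, and 2 at 1.5-fold. Shares of all gene names called were read only for the main setting, the signal minimum of 100 and the other thresholds. Over the members the median (-0.73) came to -0.85 when arrays were scaled by medians, -0.62 with the 75th percentile of detected probes and with quantile normalization, -0.60 with loess, -1.13 with spike-in scaling, -0.57 with the mean and -0.62 with the median of probes.

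Relative to the median of all gene names, the member median (-0.66) was -0.77 without the filter on dim probes, -0.50 with the mean and -0.54 with the median of probes. The median of the SR and SR-like genes, TRA2A and TRA2B included, (-0.86) was -0.73 with quantile normalization and -0.76 with loess. It was -0.78 with normexp and with the nearest spots, and -0.76 at a signal of at least 100. The hnRNP and PTB median (-0.79) was -0.64 with quantile normalization, -0.66 with loess and -0.90 without the dim filter. It was -0.58 with the mean and with the median of probes, and -0.70 with the nearest spots. The median of cell-type regulators (0.24) was 0.35 with quantile normalization, 0.34 with loess, 0.13 without the dim filter and 0.10 with the nearest spots. Core spliceosome genes (-0.67) were at -0.56 with quantile normalization, -0.57 with loess and -0.76 without the dim filter, where speckle proteins (-0.23) were at -0.34 and SR kinases (0.23) at 0.12. The cause was not tested. None of these medians changed sign relative to all gene names. The 14 alternatives gave 600 member values, of which 349 stayed within 1 spot SD of the main value, and 9 members, none of them called, changed sign under at least 1.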

Other observations

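The names left out of the set were read as well. The probes of HNRNPA1L2, a near copy of HNRNPA1, were lower by values between -0.55 and -0.45. HNRNPKP3, a pseudogene of HNRNPK, gave -0.54 and -0.13 at its detected probes, and the antisense transcript HNRNPU-AS1 gave 0.45 and 0.43. MBNL1-AS1 was well above background on the DLEU1 vector array only (-4.77 and -3.76).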
